A study of Mus musculus with 9 samples.

Results

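The genes for mitochondrial ribosomal proteins were examined in N2A cells, a mouse neuroblastoma line, after depletion of EXOSC3 or DDX1. Members were chosen by symbol alone, as every gene named Mrpl or Mrps followed by a digit, which gave 77 of the 24318 genes in the tables. Of these, 48 carry an Mrpl symbol, for the large subunit, and 29 an Mrps symbol, for the small subunit. The cells were transfected with a scramble siRNA (siScramble), with siRNA against Exosc3 (siEXOSC3) or with siRNA against Ddx1 (siDDX1), with 3 libraries per condition and 9 in all. All 9 come from the same line kept in the same medium, the scramble cells are listed as wild type, and the study's methods describe the replicates as biological. EXOSC3 is a cap subunit of the RNA exosome, the complex that processes and degrades RNA from its end, and DDX1 is a putative RNA helicase. Total RNA freed of ribosomal RNA was sequenced without keeping the strand, and the values are FPKM (fragments scaled by transcript length and by the depth of the library). Each knockdown has a table of its own with the same 3 scramble libraries beside it, so both comparisons below share their controls. Every test stays within a table.

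The mitochondrial ribosome makes the few proteins that the mitochondrial genome encodes, all of them core subunits of the respiratory chain and ATP synthase. Its ribosomal RNAs come from mitochondrial DNA, but all of its proteins are encoded in the nucleus, made in the cytosol and imported, so that its assembly joins the products of both genomes. Some of these proteins descend from those of bacterial ribosomes, and others were added during the evolution of mitochondria. Several of the genes are mutated in human mitochondrial disease.

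The state of the libraries was checked first. Exosc3 stood at 15.5% of the scramble mean in siEXOSC3 cells and Ddx1 at 24.4% in siDDX1 cells, and each target lay below all scramble values. Of 10 neuroblastoma markers, 8 had a mean of at least 1 FPKM in every group. Their summed level was 334 to 387 FPKM in scramble and 440 to 519 FPKM in siEXOSC3 libraries of the siEXOSC3 table, against 331 to 383 and 312 to 374 FPKM in the siDDX1 table. Markers of epithelium summed to at most 0.0274 FPKM, and those of glia, fibroblasts and immune cells summed to at most 3.47 FPKM. The size of the smallest step in low values put the depth of the libraries between 0.827 and 1.204 times that of scramble replicate 1, while the absolute depth is unknown.

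Mitochondrial ribosomal protein genes were well expressed in scramble cells. FPKM is a level per transcript length, so genes can be compared, and the members had a median of 46.7 FPKM against 14.1 FPKM over the 11242 genes tested in the siEXOSC3 table. Scramble means ran from 5.53 to 408 FPKM, a 73.7-fold range among proteins that stand in the ribosome as single copies for the most part, and 74 of 77 reached 10 FPKM. The small subunit genes were closer together, from 24.4 to 269 FPKM with a median of 48.9 FPKM, than the large subunit genes, which spanned the whole range with a median of 44.0 FPKM.

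**Figure D1:**
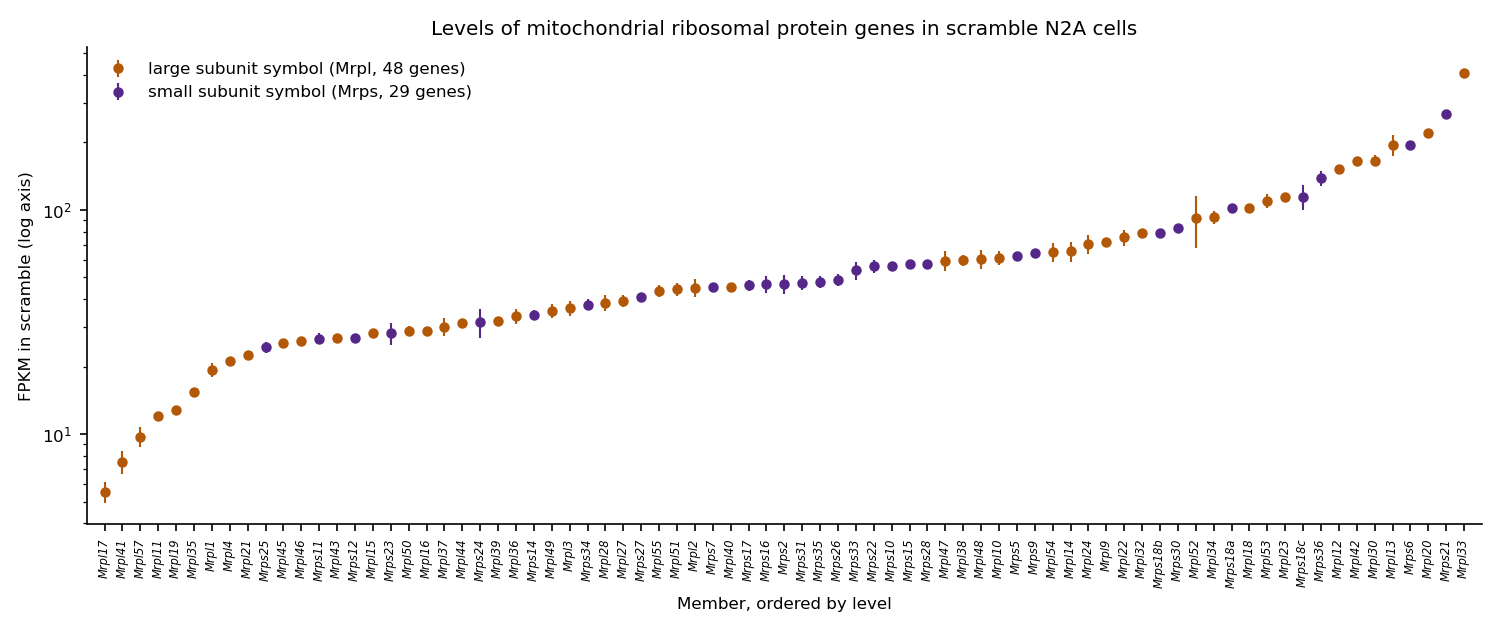
Mean FPKM in the 3 scramble libraries of the siEXOSC3 table (vertical log axis) for each of the 77 members, ordered by level; bars are the SD of 3 libraries, orange points Mrpl and purple points Mrps genes. The order runs from Mrpl17 at 5.53 FPKM to Mrpl33 at 408 FPKM, and 14 members lie at 100 FPKM or above.

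Mrpl33, whose product has a bacterial counterpart in the large subunit, was highest, with 415, 422 and 386 FPKM in scramble replicates 1, 2 and 3. Its exons overlap those of Bre on the same strand, so the level may be shared with that gene. Mrps21, of the small subunit, came next with 271, 272 and 264 FPKM, and Mrpl20, of the large subunit, followed with 226, 209 and 224 FPKM. These 3 did not overlap each other in any library. At the other end stood Mrpl17 with 5.13, 5.27 and 6.20 FPKM, Mrpl41 with 7.10, 6.97 and 8.54 FPKM, and Mrpl57 with 8.99, 9.34 and 10.8 FPKM. The ranges of these 3 were likewise separate from each other. None of the 6 passed the test in either knockdown (limma adjusted p between 0.0624 and 0.838), so neither end of the range held a called member.

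Members are short genes. Their median exonic length was 1708 bases in GENCODE vM1 on NCBIM37, the sequence of mm9, against 3710 bases for the genes tested, while the median GC content of 50.4% was near the 49.9% of all. They lie on 17 chromosomes, so the list is not a neighbourhood. For 26 members an exon overlaps an exon of another gene, in 22 cases on the opposite strand, and in a library without strand those reads cannot be assigned to a gene with certainty. For 16 members at least 50% of the coding sequence has a copy elsewhere in the genome that is at least 95% identical, so their values are uncertain. They are Mrpl21, Mrpl22, Mrpl23, Mrpl27, Mrpl41, Mrpl42, Mrpl48, Mrpl51, Mrps5, Mrps10, Mrps16, Mrps18b, Mrps21, Mrps26, Mrps33 and Mrps36.

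In siEXOSC3 cells most mitochondrial ribosomal protein genes had a negative log2 fold change, most clearly in replicate 3, and few passed the test. Of the 77 members, 12 passed the test (limma adjusted p under 0.05), 10 lower and 2 higher. That is 15.6% of members against 32.4% of all genes tested, or 15.7% lower and 16.7% higher over all genes. These shares depended on the processing: with a trend on GC content and exonic length removed from each library, 31.2% of members were lower and 3.9% higher, against 19.4 and 15.8% of all genes (35.1 and 35.2% in either direction). The median log2 fold change of the members was -0.11 (range -0.67 to 0.42), with 58 below 0, while that of all genes was -0.01. Of all genes tested, 5840 of 11242 were below 0. By library, the median over members stood at -0.06, -0.01 and -0.23 in siEXOSC3 replicates 1, 2 and 3. In 28 members (36.4%) the siEXOSC3 and scramble values did not overlap, 22 below and 6 above scramble, against 49.7% of all genes tested (25.9% below and 23.8% above). Values are on the scale of log2(FPKM + 1), and in bulk RNA fewer cells of a type and less RNA per cell cannot be told apart.

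**Figure D2:**
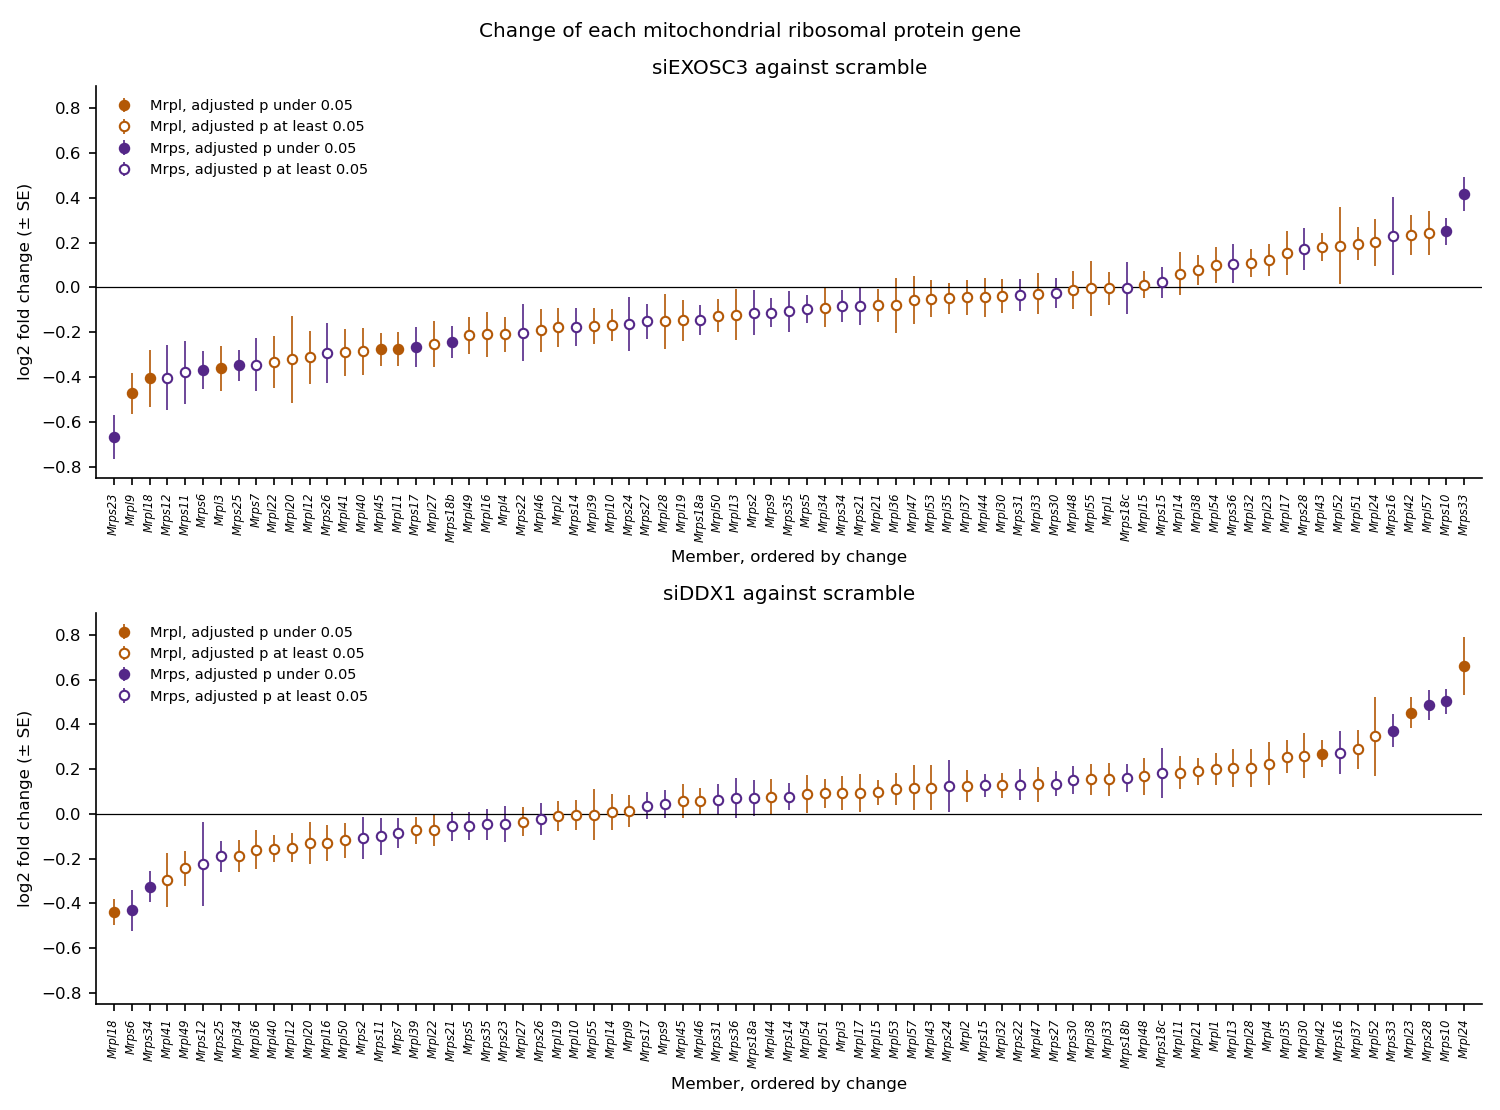
Log2 fold change of each of the 77 members against scramble on the log2(FPKM + 1) scale, in siEXOSC3 (top) and siDDX1 cells (bottom), each ordered by change; bars are standard errors from limma, n = 3 libraries per condition, and filled points have an adjusted p under 0.05. In siEXOSC3 cells 58 of 77 points lie below 0, in siDDX1 cells 28, and 12 and 9 points are filled.

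Mrps23, a small subunit protein particular to mitochondria, fell furthest. It had 25.9, 26.8 and 31.9 FPKM in scramble and 18.9, 17.2 and 15.9 FPKM in siEXOSC3 replicates 1, 2 and 3. The groups were well separated, and siEXOSC3 cells held 61.5% of the scramble mean (log2 fold change -0.67, SE 0.0975, limma adjusted p = 0.00294). In siDDX1 cells Mrps23 had 27.1, 27.3 and 26.4 FPKM, inside the scramble range (limma adjusted p = 0.758). The gene lies on chromosome 11 of mm9 from 88017890 to 88025009, plus strand, and no other annotated gene overlaps it.

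Mrpl9, the counterpart of a bacterial protein at the base of a stalk of the large subunit, was next. Scramble libraries had 74.1, 71.5 and 70.3 FPKM and siEXOSC3 libraries 51.5, 58.6 and 45.4 FPKM. All 3 siEXOSC3 values were below scramble, at 72.0% of its mean (log2 fold change -0.47, SE 0.092, limma adjusted p = 0.00768). In siDDX1 cells the values of 77.4, 73.7 and 65.2 FPKM fell on both sides of scramble (limma adjusted p = 0.925).

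Mrps25, another small subunit protein particular to mitochondria, had 24.9, 25.5 and 22.8 FPKM in scramble and 19.1, 19.4 and 18.3 FPKM in siEXOSC3 libraries (log2 fold change -0.35, limma adjusted p = 0.00836). The siEXOSC3 values were the tighter group, and none reached the lowest scramble value. Its exons overlap those of Nr2c2 on the opposite strand, which fell as well (log2 fold change -0.29, limma adjusted p = 0.034), and the part of shared reads in either value was not tested. In siDDX1 cells Mrps25 lay at 20.2, 22.0 and 20.9 FPKM, below all scramble values but past no threshold (log2 fold change -0.19, limma adjusted p = 0.109).

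Of the other members called lower in siEXOSC3 but not in siDDX1 cells, 3 belong to the large subunit. Mrpl3, which reaches toward the peptidyl transferase centre, went from 39.6, 35.0 and 34.4 FPKM in scramble to 28.3, 31.6 and 24.5 FPKM (log2 fold change -0.36, limma adjusted p = 0.0263). Mrpl45, which lines the exit tunnel facing the inner membrane, went from 26.0, 25.9 and 24.6 FPKM to 22.6, 19.5 and 20.6 FPKM (log2 fold change -0.28, limma adjusted p = 0.0223). Mrpl11, of the stalk base where translation factors bind, went from 11.97, 12.5 and 11.6 FPKM to 9.28, 10.6 and 9.43 FPKM (log2 fold change -0.27, limma adjusted p = 0.0281). In each of the 3 the groups did not overlap. From the small subunit, Mrps17 went from 43.5, 46.4 and 48.4 FPKM to 42.3, 38.5 and 33.9 FPKM, just inside the threshold (log2 fold change -0.27, limma adjusted p = 0.04997). The Mrps17 call was lost in 7 of the 9 alternatives that keep all libraries and in 4 of the 6 fits without 1 library, those without siEXOSC3 replicate 3 or any 1 of the scramble libraries (limma adjusted p up to 0.155). Mrps18b went from 78.2, 77.5 and 82.0 FPKM to 69.2, 70.0 and 61.4 FPKM (log2 fold change -0.24, limma adjusted p = 0.0312), and it is among the members with a near-identical copy. The calls of Mrpl3, Mrpl11 and Mrps18b were lost without siEXOSC3 replicate 1, that of Mrpl11 also without siEXOSC3 replicate 3, and all of these and that of Mrpl45 without any 1 of the scramble libraries (limma adjusted p up to 0.1071). With no filter on low FPKM the Mrpl3 call was lost as well (limma adjusted p = 0.0558). With the replicate number as a block, the calls of Mrpl11, Mrpl45 and Mrps18b were lost too. Whether these changes differ from those in siDDX1 cells was not tested.

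In siDDX1 cells the share of members called was near that of all genes. Of the 77, 9 passed the test, 6 higher and 3 lower, which is 11.7% against 10.6% of all genes tested (5.61% higher and 5.03% lower). Without the 16 members with a near-identical copy, 2 were called higher and 3 lower. The median log2 fold change of the members was 0.08 (range -0.44 to 0.66), with 49 above 0, and that of all genes -0.0006. Of all genes tested, 5540 of 11104 were above 0. With the trend on GC content and exonic length removed, the members' median was 0.04. Values of siDDX1 and scramble were fully apart in 31 members (40.3%, against 34.7% of all genes), 23 above and 8 below scramble (17 and 17.8% of all genes).

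Mrpl24, a large subunit protein near the exit tunnel with a bacterial counterpart, had the largest rise. Scramble libraries had 74.9, 73.0 and 61.9 FPKM and siDDX1 libraries 129, 115 and 90.6 FPKM. All siDDX1 values were higher, though spread over a wider range than scramble, at 159.9% of its mean (log2 fold change 0.66, SE 0.13, limma adjusted p = 0.0203). The call was lost in 5 of the 6 fits without 1 library, all but that without siDDX1 replicate 3 (limma adjusted p up to 0.091), and with no filter on low FPKM. Mrpl24 lies on chromosome 3 from 87723428 to 87727594, plus strand, and its exons overlap those of Rrnad1 on the opposite strand, which had a log2 fold change of 0.09 (limma adjusted p = 0.508). In siEXOSC3 cells Mrpl24 had 86.5, 70.4 and 87.4 FPKM, overlapping scramble (log2 fold change 0.20, limma adjusted p = 0.169).

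Mrps28, of the small subunit, went from 57.7, 58.3 and 54.6 FPKM in scramble to 84.95, 81.3 and 74.3 FPKM in siDDX1 libraries (log2 fold change 0.49, SE 0.0672, limma adjusted p = 0.00751). The groups were far apart relative to their spread. In siEXOSC3 cells its 73.8, 64.4 and 57.04 FPKM overlapped scramble (log2 fold change 0.17, limma adjusted p = 0.186).

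Mrpl23, at the exit tunnel, went from 112, 113 and 113 FPKM to 168, 152 and 145 FPKM (log2 fold change 0.45, limma adjusted p = 0.00911). Mrpl42, particular to mitochondria, went from 167, 166 and 157 FPKM to 203, 194 and 194 FPKM (log2 fold change 0.27, limma adjusted p = 0.028). Both have a near-identical copy elsewhere, that of Mrpl23 covering its whole coding sequence of 441 bases with 100% identity on chromosome 2, so what was counted for the gene and what for the copy cannot be told apart. The Mrpl42 call was lost in all fits without 1 library but that without siDDX1 replicate 3 (limma adjusted p up to 0.1163), and the Mrpl23 call without scramble replicate 1 or 3 (up to 0.05915).

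Mrps34, a small subunit protein particular to mitochondria whose human gene is mutated in Leigh syndrome, was lower. It had 37.1, 35.6 and 39.7 FPKM in scramble and 31.7, 28.9 and 28.5 FPKM in siDDX1 libraries, with no overlap (log2 fold change -0.33, SE 0.069, limma adjusted p = 0.0251). The call was lost without siDDX1 replicate 2 or any 1 of the scramble libraries (limma adjusted p up to 0.1084). In siEXOSC3 cells its 36.3, 37.0 and 33.6 FPKM overlapped scramble (limma adjusted p = 0.381). The gene shares exon sequence with Nme3 on its own strand and Mapk8ip3 on the other. For Mapk8ip3 the log2 fold change was 0.41 with siDDX1 (limma adjusted p = 0.0729), and the gene rose in siEXOSC3 cells (1.05, limma adjusted p = 0.00129).

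Mrpl18, Mrps6, Mrps10 and Mrps33 passed the test in both knockdowns, each in the same direction. Since the controls are shared, the second call is no independent repeat of the first. Mrpl18 and Mrps6 were lower, Mrps10 and Mrps33 higher. None of the 4 kept both calls in every fit without 1 library. Mrpl18 lost its siEXOSC3 call in 5 of the 6 fits (limma adjusted p up to 0.1291), all but that without siEXOSC3 replicate 2, and also with no filter on low FPKM (0.08723) or no intensity trend (0.05318). Mrps10 lost its siEXOSC3 call without siEXOSC3 replicate 1 or scramble replicate 1 or 2 (up to 0.08004). Mrps33 lost its siDDX1 call without siDDX1 replicate 1 or 2 or scramble replicate 1 or 3 (up to 0.1022). Mrps6 lost its siDDX1 call without siDDX1 replicate 1 or any 1 of the scramble libraries (up to 0.1078) and with no filter (0.05774), and its siEXOSC3 call without scramble replicate 1 (0.06).

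Mrpl18, of the central protuberance of the large subunit, had 105, 102 and 98.6 FPKM in scramble and 71.6, 96.2 and 65.8 FPKM in siEXOSC3 libraries of the siEXOSC3 table. Replicate 2 was close to scramble and the other two far below it (log2 fold change -0.41, SE 0.127, limma adjusted p = 0.0401). In the siDDX1 table scramble had 105, 102 and 97.4 FPKM and siDDX1 71.8, 76.1 and 75.8 FPKM, a tight group at 73.6% of scramble (log2 fold change -0.44, SE 0.0578, limma adjusted p = 0.0072). The gene lies on chromosome 17 from 13104215 to 13109211, minus strand, and its exons overlap those of Tcp1 on the opposite strand, which had log2 fold changes of -0.12 and 0.03 (limma adjusted p = 0.147 and 0.815).

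Mrps6, of the platform side of the small subunit, had 199, 192 and 195 FPKM in scramble and 159, 163 and 134 FPKM in siEXOSC3 libraries (log2 fold change -0.37, SE 0.084, limma adjusted p = 0.0135). In the siDDX1 table the values were 198, 190 and 193 FPKM in scramble and 146, 161 and 125 FPKM in siDDX1 (log2 fold change -0.43, SE 0.091, limma adjusted p = 0.0251). The scramble libraries differed by less than 10 FPKM, and each knockdown group lay below all of them with a wider spread. It lies on chromosome 16 from 92058515 to 92112472, plus strand, and Slc5a3 shares exon sequence with it on the same strand (log2 fold changes 0.19 and -0.21, limma adjusted p = 0.437 and 0.219).

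Mrps10, in the head of the small subunit, had 54.7, 56.4 and 57.3 FPKM in scramble against 67.3, 64.5 and 69.3 FPKM in siEXOSC3 (log2 fold change 0.25, SE 0.0605, limma adjusted p = 0.0161). Against 54.3, 55.9 and 56.7 FPKM, siDDX1 libraries had 81.6, 80.0 and 76.3 FPKM (log2 fold change 0.50, SE 0.0556, limma adjusted p = 0.0045). The siDDX1 values were all above the siEXOSC3 values, but the tables were scaled separately and this difference was not tested. The gene lies on chromosome 17 from 47505836 to 47518366, plus strand.

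Mrps33, particular to mitochondria, had 50.7, 59.6 and 50.9 FPKM in scramble and 71.6, 72.5 and 71.7 FPKM in siEXOSC3 libraries (log2 fold change 0.42, SE 0.0758, limma adjusted p = 0.00605). The siDDX1 libraries had 67.2, 70.9 and 69.1 FPKM against 50.3, 59.1 and 50.3 FPKM (log2 fold change 0.37, SE 0.0746, limma adjusted p = 0.0211). Scramble replicate 2 stood above the other scramble libraries and still below every knockdown library. Mrps33 lies on chromosome 6 from 39751803 to 39760987, minus strand.

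Both members higher in both knockdowns have a near-identical copy. That of Mrps10 covers 95.2% of its coding sequence with 97.9% identity on chromosome 17, and that of Mrps33 covers all of it with 99.7% identity on chromosome 7. Of the 10 members lower in siEXOSC3 cells, 1 has such a copy (Mrps18b), and of the 6 higher in siDDX1 cells, 4 do. Without the 16 members concerned, 0 members were higher and 9 lower in siEXOSC3 cells, and 2 were higher and 3 lower in siDDX1 cells, which is 14.8 and 8.2% of the remaining 61 called against 32.4 and 10.6% of all genes. The count of 0 is by limma, the tool used for every fit; among these 61 members 19 had an unadjusted p under 0.05 in either direction. The part of the copies in the values was not tested.

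**Figure D3:**
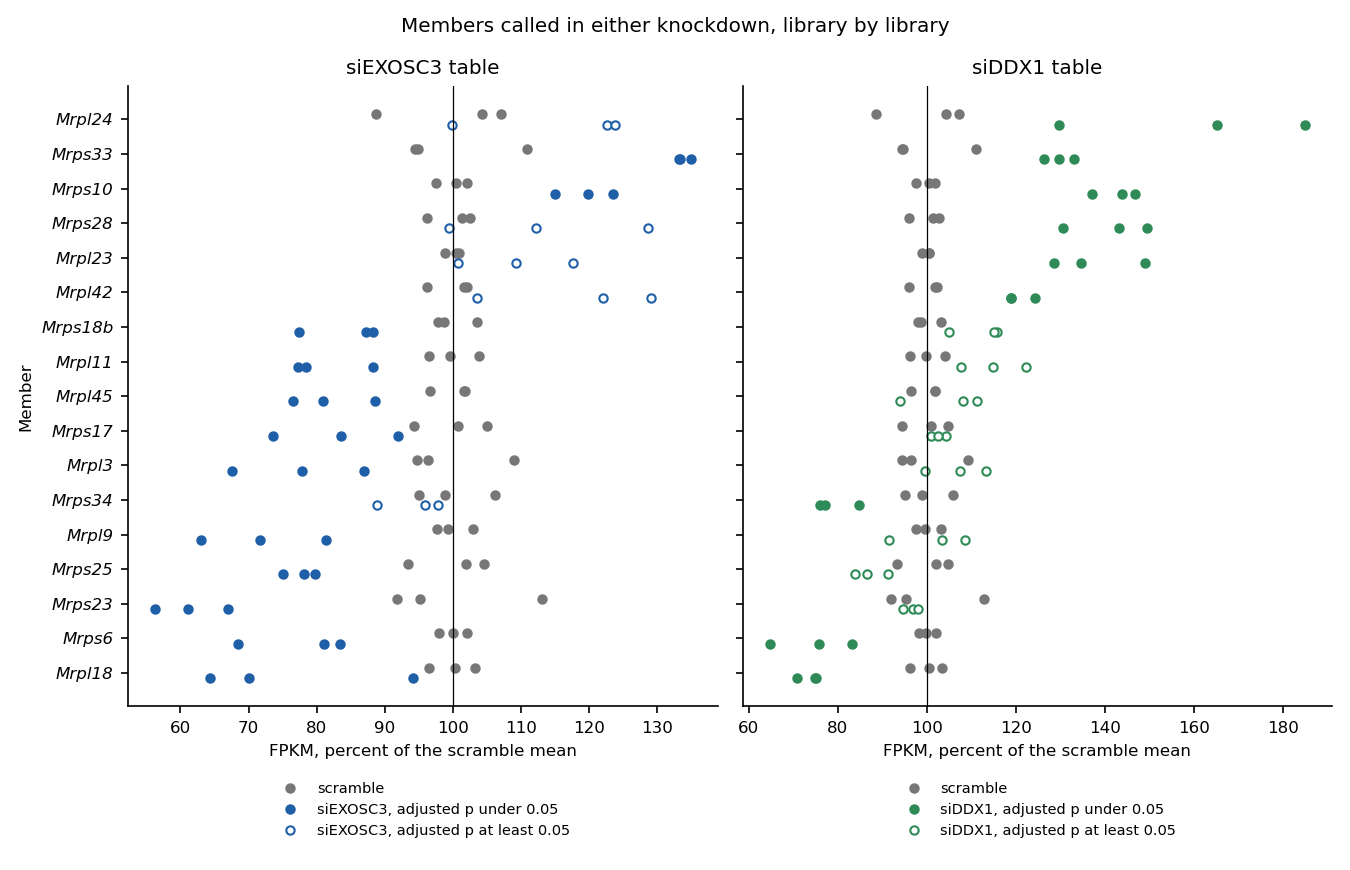
FPKM of each library as a percentage of the scramble mean of its table for the 17 members called in either knockdown, in the siEXOSC3 (left) and siDDX1 table (right); grey points are the 3 scramble libraries, coloured points the 3 knockdown libraries, filled where the adjusted p is under 0.05. Mrpl18 and Mrps6 lie below and Mrps10 and Mrps33 above the scramble points in both panels, whereas Mrps23 and Mrpl9 lie below them on the left alone.

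Both subunits leaned the same way in each knockdown. Of all genes tested 32.4% were called in siEXOSC3 and 10.6% in siDDX1 cells, beside 10.4 and 8.33% of Mrpl and 24.1 and 17.2% of Mrps genes. In siEXOSC3 cells 0 of 48 Mrpl genes were called higher and 5 lower, with a median log2 fold change of -0.08, and 2 of 29 Mrps genes were called higher and 5 lower, with a median of -0.11. Of the Mrpl genes 17 had an unadjusted p under 0.05 in either direction. In siDDX1 cells 3 Mrpl genes were called higher and 1 lower, with a median of 0.09, and 3 Mrps genes higher and 2 lower, with a median of 0.06. The medians of the subunits thus differed by 0.03 in each knockdown (Mrpl minus Mrps). Members share libraries and are not replicates, so this difference has no test. It changed sign, to -0.01 in the siEXOSC3 table without siEXOSC3 replicate 1 and to -0.02 in the siDDX1 table without scramble replicate 1.

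The symbol is not always the place in the ribosome. Mrps18a and Mrps30 sit in the large subunit despite their names, and Mrps36 is now counted with the oxoglutarate dehydrogenase complex. By place, the medians were -0.08 for 50 large and -0.13 for 26 small subunit genes in siEXOSC3 cells, and 0.09 and 0.04 in siDDX1 cells. Neither Mrps18a, Mrps30 nor Mrps36 was called. By descent, 16 small subunit genes with a bacterial counterpart gave 1 call higher and 2 lower in siEXOSC3 cells, and 10 particular to mitochondria gave 1 higher and 3 lower. In the large subunit the 30 with a counterpart gave 0 higher and 4 lower and the 19 particular to mitochondria 0 higher and 1 lower, with 9 and 7 at an unadjusted p under 0.05. In siDDX1 cells these 4 lists gave 2 higher and 1 lower, 1 and 1, 2 and 1, and 1 and 0. Called shares of the 4 lists ran from 5.26 to 40% in siEXOSC3 and from 5.26 to 20% in siDDX1 cells, against 32.4 and 10.6% of all genes.

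The libraries of a group differed in how far the members lay from scramble. The siEXOSC3 medians given above are medians over the 77 members of the log2 difference from the mean of all scramble libraries. Each scramble library was set against the mean of the other scramble libraries, and those of that table lay between -0.03 and 0.04. The siEXOSC3 replicate 3 stood apart, and it held the lowest of the 3 siEXOSC3 values for 62 of 77 members (80.5%), against 42.9% of all genes tested. The siDDX1 replicates stood at 0.11, 0.07 and 0.06, all above the scramble range of -0.03 to 0.04. For the Mrpl genes alone each also lay above every scramble library of that table. For the Mrps genes alone they stood at 0.0661, 0.0496 and 0.0391, and the last was below scramble replicate 1 at 0.0441. The siDDX1 replicates 1, 2 and 3 held the lowest value for 20, 27 and 30 members (26, 35.1 and 39%), against 33.1, 26.2 and 40.7% of all genes. The median coefficient of variation of the members over 3 libraries was 9.62% in siEXOSC3, 5.88% in siDDX1 and 5.69% in scramble, where all genes tested had 9.44, 8.98 and 6.05%.

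**Figure D4:**
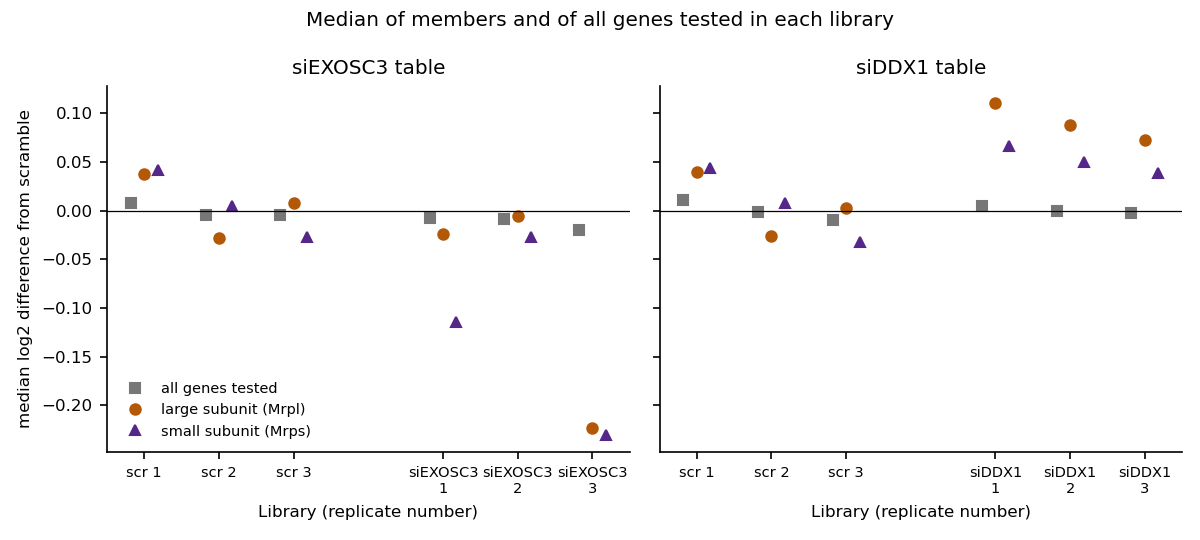
Median over genes of the log2 difference of a library from scramble, for the genes tested (squares), the 48 Mrpl (circles) and the 29 Mrps genes (triangles), in each library of the siEXOSC3 (left) and siDDX1 table (right); scr is scramble and numbers are replicates. A knockdown library is set against the mean of all scramble libraries of its table, and a scramble library against the mean of the other scramble libraries. The Mrpl and Mrps medians of siEXOSC3 replicate 3 lie at -0.22 and -0.23, below every other library, and the Mrpl and Mrps medians of the siDDX1 libraries lie between 0.04 and 0.11.

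Leaving out libraries moved the counts of called members as well. In the siEXOSC3 comparison 8, 25 and 13 members were called without siEXOSC3 replicate 1, 2 or 3, and 4, 5 and 6 without scramble replicate 1, 2 or 3, beside 12 with all. Over all genes the same fits called 18.2, 43.5 and 28.9%, and 14.3, 20 and 17.7%. The median of the members was -0.05 without replicate 3 and -0.15 without replicate 2. In the siDDX1 comparison 5, 5 and 23 members were called without siDDX1 replicate 1, 2 or 3, and 3, 5 and 3 without scramble replicate 1, 2 or 3, beside 9 with all, and over all genes 3.96, 2.99 and 31.8%, and 1.48, 4.69 and 1.47%. Of the 21 calls, 7 held in all of these fits: Mrps23, Mrpl9, Mrps25 and Mrps33 in siEXOSC3 cells, and Mrpl18, Mrps10 and Mrps28 in siDDX1 cells. The other 14 were lost in at least 1 of them, and no direction turned.

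A correction for GC content and gene length changed the siEXOSC3 count. With that trend removed, 24 members were called lower (31.2%, against 19.4% of all genes) and 3 higher (3.9%, against 15.8%), and all 12 of the members called without the correction were among them. The median of the members was then -0.12. In siDDX1 cells the same correction gave 8 higher and 4 lower (10.4 and 5.19% of members against 6.24 and 6.15% of all genes, or 15.6 against 12.4% in either direction), with a median of 0.04.

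The promoters of the members were searched for the letters of 3 elements known from nuclear genes for mitochondrial proteins, on both strands of the 250 bases before the RefSeq start site (GRCm38.p6), which 68 members have in the table used. CCGGAAG, bound by ETS factors such as GABP, was found in 25% of members and 17% of the genes tested that have a promoter in the table. TGCGCA, the core of the element of NRF1 (nuclear respiratory factor), is its own reverse complement and was also found in 25%, against 14.3%. CCAAT was found in 36.8% against 41.1%. None of the 3 strings contains another.

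The NRF1 core was found in the promoters of 7 of the 10 members called lower in siEXOSC3 cells. It was in neither of the 2 called higher, in 9 of the 53 members called in neither knockdown, and in 17.2% of all genes called lower in siEXOSC3 cells. The count of 7 rests on calls that depend on single libraries: of these 7 calls only those of Mrpl9 and Mrps23 were kept in every fit without 1 library. Without scramble replicate 1 the core was in 2 of 3 members called lower, without scramble replicate 2 or 3 in 3 of 4, and without siEXOSC3 replicate 2 in 9 of 22. With the replicate block it was in 3 of 6, and with GC and length correction in 10 of 23. Of the other elements, the ETS core was in 2 of the 10 (15 of the 53, and 21.3% of all genes called lower) and CCAAT in 5 of the 10 (18 of the 53, and 42.2%). In siDDX1 cells the NRF1 core was found in 1 of 5 promoters of members called higher (Mrpl23) and in 1 of 2 of those called lower (Mrps6). This split was looked at after the calls were known, so it is given as a description without a test, and a match of letters is not a binding site. The 8 matches in these 7 promoters are shown because the core recurred among the members called lower; each line runs 5′ to 3′ on the strand of the gene, with 17 bases to either side and the core in capitals.
Mrpl9: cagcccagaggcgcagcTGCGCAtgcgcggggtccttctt
Mrpl11: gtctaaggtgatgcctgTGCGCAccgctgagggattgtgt
Mrpl45: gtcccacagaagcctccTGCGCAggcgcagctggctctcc
Mrpl45: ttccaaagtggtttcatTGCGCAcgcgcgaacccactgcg
Mrps6: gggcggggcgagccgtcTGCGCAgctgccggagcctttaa
Mrps17: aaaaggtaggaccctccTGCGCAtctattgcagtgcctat
Mrps18b: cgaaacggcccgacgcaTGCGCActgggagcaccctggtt
Mrps23: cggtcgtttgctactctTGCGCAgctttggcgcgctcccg
They lie, in GRCm38.p6, at chr3:94443290-94443329 (plus strand), chr19:4962119-4962158 (plus), chr11:97315578-97315617 and chr11:97315660-97315699 (plus), chr16:92058257-92058296 (plus), chr5:129715306-129715345 (plus), chr17:35916638-35916677 (minus) and chr11:88204161-88204200 (plus). The last letter of the core stood 24 to 215 bases before the start site, with no common distance. Mrpl3, Mrpl18 and Mrps25, the other members called lower, had no match in this window.

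The members that passed the test in both knockdowns had none of the 3 elements in common. Their promoters are printed to show this, each with its 250 bases 5′ to 3′ on the strand of the gene and with ETS, NRF1 and CCAAT letters of either strand in capitals.
Mrpl18: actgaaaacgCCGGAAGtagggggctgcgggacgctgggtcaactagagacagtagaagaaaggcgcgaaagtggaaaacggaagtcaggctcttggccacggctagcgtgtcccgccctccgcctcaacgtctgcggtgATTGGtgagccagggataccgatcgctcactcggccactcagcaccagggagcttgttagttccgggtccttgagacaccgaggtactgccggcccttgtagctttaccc
Mrps6: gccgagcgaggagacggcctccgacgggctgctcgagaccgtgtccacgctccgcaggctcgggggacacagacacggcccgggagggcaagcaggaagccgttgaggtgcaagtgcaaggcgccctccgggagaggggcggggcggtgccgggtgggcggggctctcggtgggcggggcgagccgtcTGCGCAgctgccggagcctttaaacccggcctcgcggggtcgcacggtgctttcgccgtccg
Mrps10: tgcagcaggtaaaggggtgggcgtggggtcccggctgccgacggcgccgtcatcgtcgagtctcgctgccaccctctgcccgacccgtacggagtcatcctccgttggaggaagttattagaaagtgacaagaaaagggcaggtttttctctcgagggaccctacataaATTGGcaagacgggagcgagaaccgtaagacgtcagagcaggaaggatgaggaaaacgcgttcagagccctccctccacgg
Mrps33: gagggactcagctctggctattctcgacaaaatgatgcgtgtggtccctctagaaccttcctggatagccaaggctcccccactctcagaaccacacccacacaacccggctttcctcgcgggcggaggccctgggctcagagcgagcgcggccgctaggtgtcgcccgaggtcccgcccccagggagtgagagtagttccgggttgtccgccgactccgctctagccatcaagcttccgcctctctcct
These are chr17:12916092-12916341 (minus strand), chr16:92058086-92058335 (plus), chr17:47368947-47369196 (plus) and chr6:39810937-39811186 (minus) in GRCm38.p6. The Mrpl18 promoter holds 1 ETS core and 1 CCAAT on the opposite strand, that of Mrps6 1 NRF1 core, that of Mrps10 1 CCAAT on the opposite strand, and that of Mrps33 none of the 3.

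Other genes on which the mitochondrial ribosome depends were described from fixed lists, whose counts stand against 15.7% lower and 16.7% higher over all genes in siEXOSC3 cells and 5.03 and 5.61% in siDDX1 cells. The 6 mitoribosomal proteins under other symbols in the tables gave 0 calls in either knockdown by limma, with 0 and 2 at an unadjusted p under 0.05, and median log2 fold changes of -0.01 in siEXOSC3 and 0.12 in siDDX1 cells. Of 27 assembly factors, 6 were lower in siEXOSC3 cells and 0 higher (22.2% called against 32.4% of all genes, median log2 fold change -0.17). The 4 with the largest change were Mettl17 (log2 fold change -0.51, limma adjusted p = 0.0112), Eral1, a GTPase that binds the small subunit RNA (-0.47, 0.00472), Noa1 (-0.37, 0.0121) and Fastkd2 (-0.37, 0.011). Without scramble replicate 1 the calls of Noa1 and Fastkd2 were lost (limma adjusted p = 0.05687 and 0.05357). In siDDX1 cells 1 of the 27 was called, Wbscr16, which was higher (0.33, limma adjusted p = 0.0392) but lost its call in 5 of the 6 fits without 1 library (limma adjusted p up to 0.1354), all but that without siDDX1 replicate 3.

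Of 13 translation factors, Gfm1, the elongation factor that moves the ribosome along, fell in siEXOSC3 cells (log2 fold change -0.31, limma adjusted p = 0.0163), from 65.5, 60.8 and 62.0 FPKM to 47.5, 55.1 and 49.4 FPKM. Gfm2, the related factor that recycles the ribosome, rose in siEXOSC3 (0.34, limma adjusted p = 0.00702) and in siDDX1 cells (0.21, limma adjusted p = 0.0472). The call of Gfm1 was lost without siEXOSC3 replicate 1 or scramble replicate 1 or 3 (limma adjusted p up to 0.07744). That of Gfm2 in siDDX1 cells was lost in every fit without 1 library except that without siDDX1 replicate 3 (up to 0.1781). It was also lost with quantile normalization, with no intensity trend and with the replicate block. Of 18 genes of mitochondrial transcription and RNA maturation, 5 were lower and 0 higher in siEXOSC3 cells (27.8% called against 32.4% of all genes). Fastkd3 (-0.53, limma adjusted p = 0.00272), Fastkd5 (-0.49, 0.0161), Trmt10c, a subunit of mitochondrial RNase P (-0.38, 0.0075), and Elac2, which cuts the other end of transfer RNAs (-0.34, 0.0266), had the largest changes. Elac2 lost its call without siEXOSC3 replicate 1 or scramble replicate 1 or 3 (limma adjusted p up to 0.09868), and Fastkd5 without scramble replicate 1 or 3 (up to 0.06379). In siDDX1 cells Fastkd5 (-0.42, limma adjusted p = 0.0286) and Trmt10c (-0.32, 0.0327) were lower and Lrpprc, which stabilises mitochondrial messengers, higher (0.27, 0.034). Each of these 3 siDDX1 calls was lost in 5 of the 6 fits without 1 library, all but that without siDDX1 replicate 3 (limma adjusted p up to 0.1179, 0.1368 and 0.1324). Those of Trmt10c and Lrpprc were also lost with no intensity trend.

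Of 11 tested regulators of nuclear genes for mitochondria, 4 were lower and 2 higher in siEXOSC3 cells (54.5% called against 32.4% of all genes). Nrf1 had 14.9997, 13.6 and 16.7 FPKM in scramble and 9.97, 12.8 and 9.29 FPKM in siEXOSC3 libraries (log2 fold change -0.47, limma adjusted p = 0.0218), a call lost without siEXOSC3 replicate 1 or scramble replicate 1 or 3 (limma adjusted p up to 0.08623). Gabpb2, a subunit of GABP, fell (-0.51, limma adjusted p = 0.0183), as did the coactivator Pprc1 (-0.43, 0.00536). The call of Gabpb2 was lost without siEXOSC3 replicate 1 or any 1 of the scramble libraries (limma adjusted p up to 0.06464). Mycn, the amplified oncogene of many neuroblastomas, rose from 3.77, 3.38 and 4.15 FPKM to 6.77, 7.0002 and 9.40 FPKM (0.86, limma adjusted p = 0.00299). Gabpa, lower, and Esrra, higher, complete the count and are named after their values were seen. In siDDX1 cells 1 of the 11 was called, Myc, which rose from 122, 119 and 127 FPKM to 168, 160 and 187 FPKM (0.48, limma adjusted p = 0.00899), a call lost without scramble replicate 1 (limma adjusted p = 0.05839). What these changes have to do with those of the members was not tested.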

How the data were processed

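RNA-seq was analysed in 9 libraries of N2A cells, 3 per condition. Per the labels and the study's methods, the authors aligned reads to mm9 with TopHat2 2.1.0, ran Cuffdiff 2.2.1 on each knockdown with scramble, and deposited FPKM per gene and library. The annotation and library normalization are not given in the sources used here. Scramble values differ between the tables by a factor of 1.00782 to 1.01188 per library. Log2(FPKM + 1) of genes averaging 1 FPKM or more over 6 libraries (11242 in the siEXOSC3 and 11104 in the siDDX1 table) was tested with limma 3.58.1 in R 4.3.3 (eBayes, intensity trend, no covariates), two-sided, with Benjamini-Hochberg adjustment over all genes and a threshold of 0.05. The fit was checked on simulated data. For 3 against 3 libraries the smallest p of an exact permutation test is 0.1, which every called member reached. No test was run over lists.

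Members and lists were chosen with earlier results of these data known. The text names every called member, the 3 highest and 3 lowest by scramble level, and at most 4 called genes of each other list in each knockdown; Gabpa and Esrra were named beyond this rule. Positions came from GENCODE vM1 on NCBIM37, with 76 members matched by symbol and Mrpl57 by a synonym, copies from BLAST+ 2.17.0 and promoters from RefSeq. The tables hold none of the mitochondrially encoded genes of the list. FPKM hold no fragment counts, so no counting interval is given. Alternatives were a pseudocount of 0.1, no filter, a filter at a mean of 5 FPKM, quantile normalization, median centring, no intensity trend, a threshold of 0.01, GC and length correction (loess, span 0.3), a replicate block, the place in the ribosome, and leaving out each library; leaving out members with near-identical copies was added after the data were seen. R-loop data were not analysed here.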

Additional observations from a re-analysis of the deposited data

Results flagged for a closer look

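In 3 members every siEXOSC3 library lay below and every siDDX1 library above all scramble libraries, which is 3.9% of members against 1.29% of the 11054 genes tested in both tables. The difference between the knockdowns was not tested in any of them. Mrpl4, of the large subunit, had log2 fold changes of -0.2092 in siEXOSC3 and 0.2244 in siDDX1 cells, from 20.0, 17.1 and 17.3 FPKM in siEXOSC3 and 28.8, 23.01 and 22.4 FPKM in siDDX1 libraries, with limma adjusted p = 0.0722 and 0.16. Mrpl11 had -0.2742 and 0.1843, from 9.28, 10.6 and 9.43 FPKM and 14.6, 13.7 and 12.8 FPKM, with limma adjusted p = 0.0281 and 0.132. Mrps18b had -0.244 and 0.1595, from 69.2, 70.0 and 61.4 FPKM and 90.9, 82.3 and 90.4 FPKM, with limma adjusted p = 0.0312 and 0.128. Its coding sequence has a near-identical copy on chromosome 2, and its exons overlap those of Gm16279 on the opposite strand. The reverse pattern, above scramble in siEXOSC3 and below it in siDDX1 cells, was seen in 0 members and in 1.51% of those genes.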

How the results depend on the processing

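Of 21 calls on members, 0 changed direction in any alternative. Each count of the 77 members that follows has in brackets the share of all genes called in the same direction. In siEXOSC3 cells the count of members higher (2) became 1 at a threshold of 0.01 (7.73%), 3 with GC and length correction (15.8%) and with no filter (10.8%), 4 with median centring (17.9%) or quantile normalization (15.1%), and 0 of 61 without members with a near-identical copy. It lay between 1 and 6 without 1 library. It was 1 without scramble replicate 1 (9.12%), 3 without siEXOSC3 replicate 2 (21.2%) and 6 without siEXOSC3 replicate 3 (15.4%). The count lower (10) became 3 at 0.01 (4.27%), 24 with GC and length correction (19.4%) and 6 with the replicate block (9.42%), and lay between 3 and 22 without 1 library (5.18 to 22.3%). In siDDX1 cells the count higher (6) became 3 at 0.01 (0.901%), 10 with the replicate block (9.77%) and 2 of 61 without the members with copies, and lay between 2 and 14 without 1 library (0.865 to 16.4%). The count lower (3) became 1 at 0.01 (0.747%) and 2 with no filter (1.94%), and lay between 1 and 9 without 1 library (0.549 to 15.4%). In the siEXOSC3 table replicate numbers were not found to pair the samples (correlations of same-numbered deviations 0.035, -0.31 and -0.126). In the siDDX1 table these correlations were -0.012, 0.379 and 0.372 for replicates 1, 2 and 3. There siDDX1 replicate 2 with scramble replicate 3 gave -0.376, and 3 with 2 gave -0.372. Replicates 2 and 3 of that table thus went with the scramble library of their own number. The block stays an alternative. In siDDX1 cells it called 14 members and 17% of all genes, beside 9 and 10.6% without it. With the block 4 calls on members were lost (Mrpl11, Mrpl45, Mrps17 and Mrps18b in siEXOSC3 cells), as were those of Gfm1, Elac2 and Nrf1 in siEXOSC3 and Gfm2 in siDDX1 cells. With no filter the calls of Elac2 and Nrf1 in siEXOSC3 and of Fastkd5, Lrpprc, Trmt10c and Wbscr16 in siDDX1 cells were lost. The siDDX1 median of 0.0764 became 0.0424 with GC and length correction and 0.1018 with median centring. The difference Mrpl minus Mrps of 0.0303 in siDDX1 cells became 0.0012 with GC and length correction, 0.0628 with quantile normalization, 0.0531 by place and 0.0499 without copies, and lay between -0.0174 and 0.0662 without 1 library. In siEXOSC3 cells the difference of 0.034 became 0.0306 with GC and length correction, 0.0556 with quantile normalization, 0.0532 by place and 0.0674 without copies. It lay between -0.0096 and 0.0608 without 1 library, and the siEXOSC3 median of the members between -0.1537 and -0.0495. The cause of these changes was not tested.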
